A study of Homo sapiens with 6 samples.

Results

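The AP-1 and EGR immediate early factors were examined in U373, a human glioblastoma cell line, with and without an inducible syk construct and its inducer. The group was defined by name as 10 genes: FOS, FOSB, FOSL1, FOSL2, JUN, JUNB, JUND, EGR1, EGR2 and EGR3. A probe set counted as a member when the platform annotation gave it exactly 1 of these symbols. 15 of 12558 probe sets met this rule, and they stand for 9 of the 8226 named genes of the array. EGR2 was not analysed here. FOS and JUND had 3 probe sets each, JUN and JUNB had 2 each, and FOSB, FOSL1, FOSL2, EGR1 and EGR3 had 1 each.

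AP-1 is a transcription factor built as a dimer of leucine zipper proteins, in which a JUN protein pairs with another JUN protein or with a FOS protein. EGR1 and EGR3 are zinc finger factors that bind GC-rich sites. FOS, FOSB, JUN, JUNB and the EGR genes are classical immediate early genes, switched on within minutes of growth factor or stress signals through ERK and other MAP kinases and silent again soon after, whereas FOSL1 and FOSL2 usually follow later and JUND is expressed steadily in most cells.

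The study used an ecdysone-inducible expression system, in which the steroid ponasterone A (PonA) switches on the inserted gene, here syk, the kinase gene best known from immune receptors. The 6 groups were 1 array each. They were untransfected untreated cells at day 1, syk-transfected untreated cells at day 1 and at day 2, syk-transfected cells with ethanol at day 1, and syk-transfected cells with ethanol and 10 µM PonA at day 1 and at day 2. Each condition was measured once, PonA was never given to untransfected cells, day 2 had no ethanol array, and the sources used here do not say whether the transfected cells were 1 clone or a pool. Hours of PonA were given as a range for the series and not per array, which bears on transcripts as short-lived as these.

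Values are MAS5 signal, Affymetrix's linear estimate of a transcript's abundance per probe set, scaled by the authors to a trimmed mean near 150.1 on each array. Signals below the 40th percentile of their array, which lay between 22.7 and 26.5 and is called the floor here, were set to it before log2 was taken. Among markers of astroglia, VIM (4919 to 6458), FABP7 (1505 to 2391) and SOX9 (744 to 1122) were above the floor on all 6 arrays, while AQP4 was under it on all 6. For GFAP, the classical astrocyte filament gene, signal was 1533 on the untransfected array and 103 to 229 on the transfected ones. The neuronal filament gene NEFL likewise gave 458 on the untransfected array and at most 26.5 on the transfected ones. Of 6 haematopoietic markers with a probe set, PTPRC, CD14 and LYZ were under the floor on every array, and CD68 (145 to 226), CD3E (58.7 to 83.2) and HBB (27.8 to 44.0) were above it on every array. With PonA 1 of 8 tested astroglial markers, SLC1A3, passed the threshold used below. No tested marker of neurons, oligodendrocytes, haematopoietic cells, epithelium or fibroblasts did. For 3 neuronal markers and 1 fibroblast marker the unadjusted limma p was under 0.05, with the share of all probe sets not counted. The 9 spike-in probe sets had a geometric mean of 157 for the untransfected array, 271 for the ethanol array and 352 to 501 for the other 4, and the part of this in the differences that rest on those 2 arrays was not tested.

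Immediate early signals are known to act through sites in promoters, and the 250 bases before the RefSeq start site (GRCh38.p14) were read for 7 of the 9 genes. 5 are shown, those of the genes with the largest positive effects that had a sequence, and that of JUND, whose signals leaned the other way. The windows are chr5:138465229-138465478 on the plus strand for EGR1, chr14:75278578-75278827 (plus) for FOS, chr19:45467746-45467995 (plus) for FOSB, chr1:58784048-58784297 (minus) for JUN and chr19:18281623-18281872 (minus) for JUND. Capitals mark every match, on either strand, to the CArG box bound by serum response factor, to TGACG (the core bound by CREB and ATF factors, which overlaps the full palindrome TGACGTCA), to TGANTCA (the AP-1 site) and to GCGNGGGCG (the EGR site).
EGR1: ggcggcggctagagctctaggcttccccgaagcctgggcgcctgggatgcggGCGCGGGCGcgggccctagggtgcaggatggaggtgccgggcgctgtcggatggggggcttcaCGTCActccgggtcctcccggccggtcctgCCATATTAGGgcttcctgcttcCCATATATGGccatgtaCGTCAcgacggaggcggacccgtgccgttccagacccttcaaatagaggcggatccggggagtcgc
FOS: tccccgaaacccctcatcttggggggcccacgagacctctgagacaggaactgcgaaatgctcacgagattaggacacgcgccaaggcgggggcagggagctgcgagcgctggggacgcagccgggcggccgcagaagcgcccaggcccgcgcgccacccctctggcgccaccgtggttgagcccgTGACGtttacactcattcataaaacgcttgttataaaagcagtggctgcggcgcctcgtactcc
FOSB: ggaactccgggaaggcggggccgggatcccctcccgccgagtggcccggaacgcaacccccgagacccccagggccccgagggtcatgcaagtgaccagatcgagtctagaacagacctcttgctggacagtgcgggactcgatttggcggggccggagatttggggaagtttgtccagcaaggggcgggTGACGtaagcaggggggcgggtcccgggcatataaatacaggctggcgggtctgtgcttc
JUN: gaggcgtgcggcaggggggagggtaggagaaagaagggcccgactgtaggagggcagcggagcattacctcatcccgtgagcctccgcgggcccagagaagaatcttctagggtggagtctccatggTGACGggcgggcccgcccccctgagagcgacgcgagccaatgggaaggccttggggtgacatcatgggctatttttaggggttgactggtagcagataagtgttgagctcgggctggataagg
JUND: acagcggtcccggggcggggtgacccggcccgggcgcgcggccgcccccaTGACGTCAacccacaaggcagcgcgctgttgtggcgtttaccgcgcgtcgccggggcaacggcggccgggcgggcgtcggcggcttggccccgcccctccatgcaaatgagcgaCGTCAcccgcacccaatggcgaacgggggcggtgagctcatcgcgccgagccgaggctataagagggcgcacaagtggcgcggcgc
In this window EGR1 held 2 CArG boxes, starting 105 and 83 bases before the start site, and the other 6 genes held none. Sequence more than 250 bases upstream was not read, so a CArG box there, in FOS or another gene, would be missed. Of 35116 RefSeq promoter windows of the same length, 1.16% held a CArG box. All 7 genes held TGACG, which was in 21.2% of windows, and its leftmost base lay 64 bases before the start site in FOS, 60 in FOSB, 123 in JUN and 137 in JUNB. FOSL2 had matches at 201 and 66, EGR1 at 135 and 66, and JUND at 200, 197 and 86. JUND held the palindrome TGACGTCA, in 1.65% of windows, and EGR1 held a match to GCGNGGGCG, in 8.41%. TGANTCA, in 6.57% of windows, matched in none of the 7. Only this exact pattern was searched for, so variants of the AP-1 site with other letters or spacing are not marked. The stretch tgacatca in the JUN window, for example, was not counted. These are letters in a sequence, and the arrays did not measure binding.

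No member changed with PonA past the threshold, and the factor nearest to it was EGR1. EGR1 was between 75.4 and 93.6 on the 4 arrays without PonA and at 144 and 115 on the 2 with it. FOSB, FOSL1, the second FOS, the first JUN and the first JUNB probe set were also higher on both PonA arrays than on the transfected arrays without PonA. FOSB was so mostly at day 1, FOSL1 was higher by a similar ratio on both days, and the groups of the first FOS probe set overlapped. FOSL2 and the third JUND probe set were lower on both PonA arrays than on the transfected arrays without PonA. For the first and second JUND probe sets the groups overlapped. None of these differences passed the adjusted threshold, in a fit that has no repeated cultures. In such bulk RNA, fewer cells expressing a gene and less RNA per cell cannot be told apart. The tests come from an additive limma fit with terms for PonA and day over the 5 transfected arrays, adjusted by Benjamini-Hochberg over all 7934 probe sets tested. Its 2 residual degrees of freedom are the step from untreated to ethanol at day 1 and the disagreement of both days about PonA, so its p-values set PonA against those and not against replicate cultures. 13 of the 15 member probe sets were tested, 12 of them above the floor on all 6 arrays, and the other 2 are described by their signals alone.

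**Figure D1:**
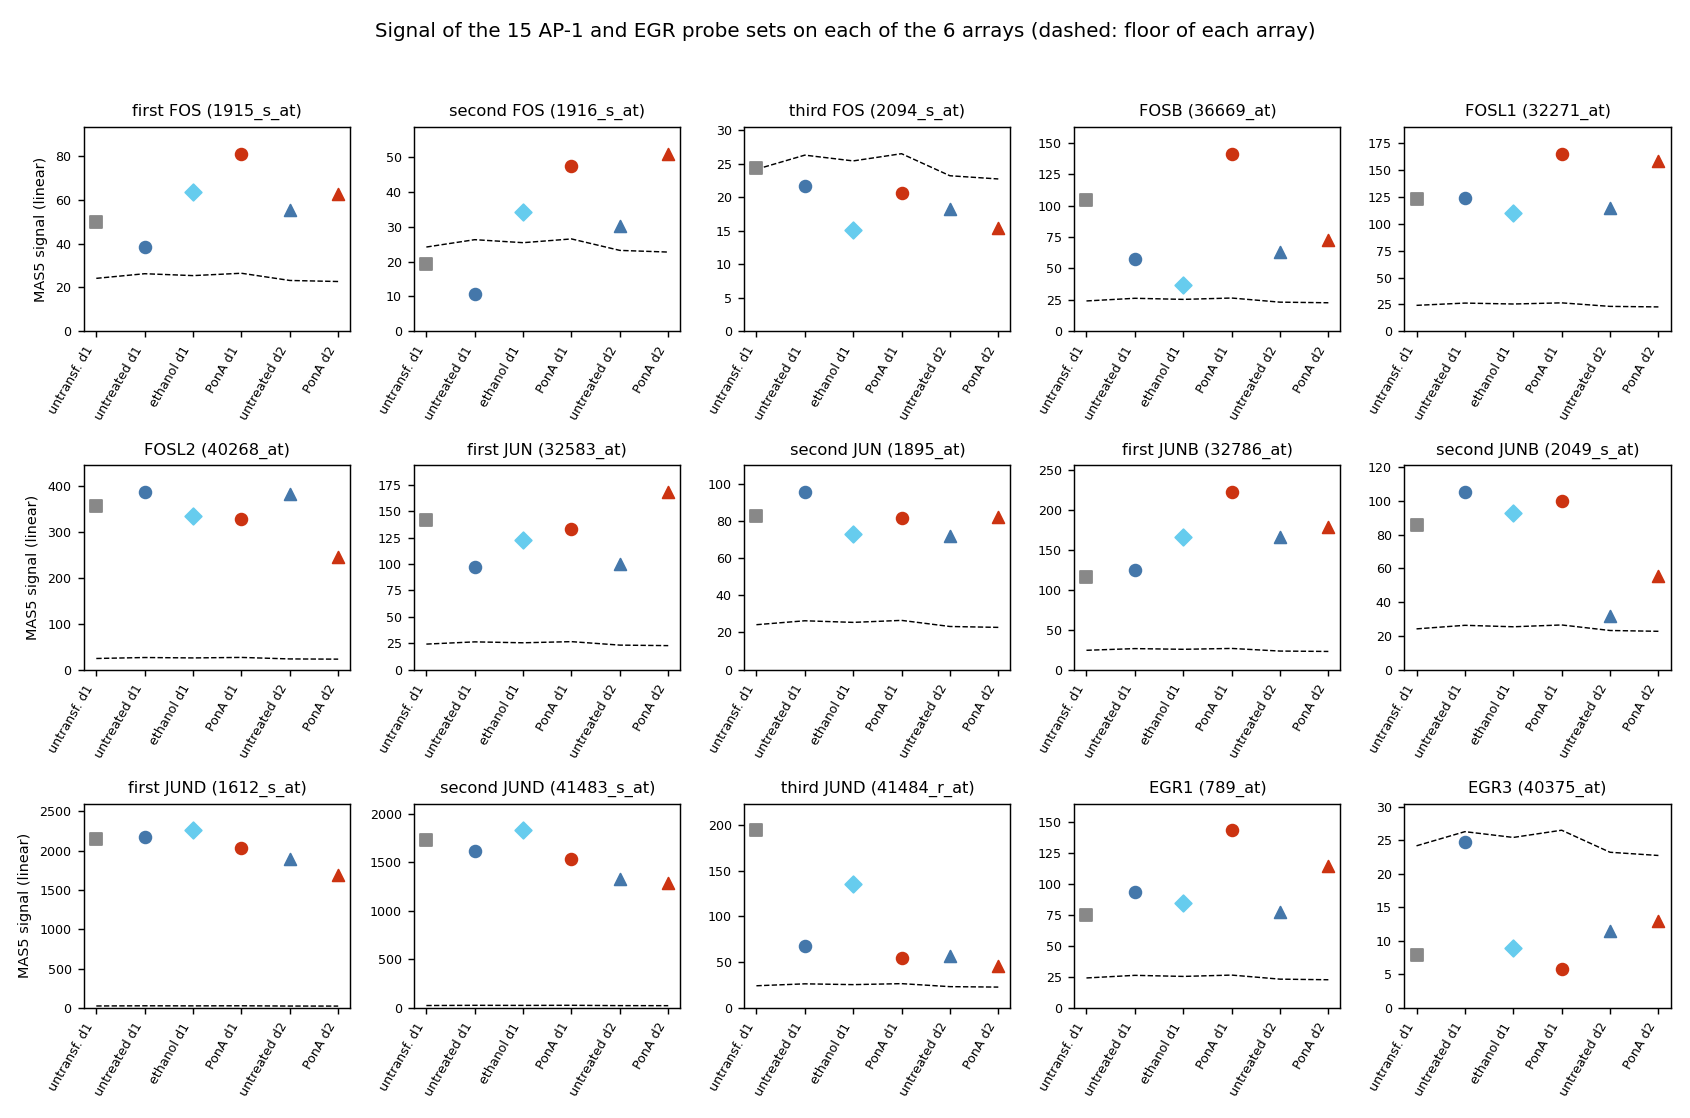
MAS5 signal on a linear axis (y) of the 15 member probe sets on each of the 6 arrays (x, 1 point an array; d1 and d2 are day 1 and day 2), with the floor of each array as a dashed line. EGR1 and FOSL1 stand higher on both PonA arrays (red) than on the other 4, FOSB does so at day 1 only, EGR3 lies under the floor on all 6 arrays, and the third FOS probe set does on all but the untransfected one.

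EGR1, the zinc finger factor that relays ERK signals to growth-related genes, gave 75.4 in untransfected cells, 93.6 in untreated transfected cells at day 1, 84.4 with ethanol, 144 with PonA at day 1, 77.8 untreated at day 2 and 115 with PonA at day 2. Both PonA arrays were above each of the other 4, with no overlap. The signal was 1.70 times that of ethanol and 1.53 times that of untreated cells at day 1, and 1.47 times that of untreated cells at day 2. The fitted EGR1 effect was 0.63 ± 0.17 on the log2 scale (SE), or 1.55-fold, with an adjusted p of 0.0950 in limma. Its 95% interval ran from 0.23 to 1.04. With ethanol alone the EGR1 signal was 0.901 times the untreated one, 1 array against 1, and the part of the solvent was not tested. EGR3, a relative of EGR1, was under the floor on all 6 arrays, with signals of 5.80 to 24.8, and has no measured ratio here.

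FOS, the partner of JUN in classical AP-1, was read by 3 probe sets. At day 1 the first FOS probe set gave 49.7 in untransfected cells, 38.7 untreated, 63.4 with ethanol and 81.0 with PonA. Its day 2 signals were 55.1 untreated and 62.4 with PonA. At day 1 the PonA signal was 2.09 times the untreated one, but ethanol alone was already at 1.64 times it, and at day 2 the ratio was 1.13. The PonA groups overlapped those without PonA, since the ethanol value exceeded the PonA value of day 2, and the fitted effect was 0.48 ± 0.27 (SE, limma adjusted p = 0.392). Leaving out the day 1 PonA array gave 0.18, and leaving out the day 1 untreated array gave 0.27.

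The second FOS probe set was under the floor in untransfected cells (19.2) and in untreated transfected cells at day 1 (10.7). It gave 34.2 with ethanol, 47.4 with PonA at day 1, 30.3 untreated at day 2 and 50.9 with PonA at day 2, so both PonA arrays exceeded all others. Its fitted effect was 0.70 ± 0.19 on the log2 scale (SE, limma adjusted p = 0.10). With the floor at the 20th percentile it was 1.07 (limma adjusted p = 0.374), beside 1.01 for FOSB. Without the ethanol array, the effect was 0.80 and the adjusted p 0.0480, within a range of 0.0480 to 0.424 over the 10 alternatives. The third FOS probe set never exceeded 24.4 and was above the floor in untransfected cells only. The first and second FOS probe sets had a Pearson r of 0.79 over the 6 arrays on the floored log2 scale, with depth of signal and arrays in common.

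FOSB, a FOS paralogue induced by the same signals, had the largest fitted effect of the group, and that effect came from 1 day. Its day 1 signal was 104 in untransfected cells, 57.2 untreated, 36.5 with ethanol and 141 with PonA, and its day 2 signal was 63.4 untreated and 72.5 with PonA. At day 1 the PonA value was 3.86 times that of ethanol and 2.47 times that of untreated cells, and at day 2 it was 1.14 times that of untreated cells. FOSB was lower with ethanol than without, at 0.639 times the untreated signal, the opposite side from FOS. The fitted effect was 1.01 ± 0.36 (SE), or 2.02-fold, with a limma adjusted p of 0.192 and a 95% interval of 0.14 to 1.89. Without the PonA array of day 1 it was 0.19, and without either array of day 2 it was 1.63 (adjusted p = 0.0806, the lowest of the 10 alternatives, which reached 0.910). Untransfected cells that never saw PonA stood between the 2 PonA arrays in FOSB signal.

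FOSL1, which encodes FRA1, the FOS relative most tied to sustained ERK signalling and to invasive cells, was the steadiest of the FOS family with PonA. At day 1 it gave 123 in untransfected cells, 124 untreated, 110 with ethanol and 165 with PonA. The day 2 pair was 115 untreated and 159 with the inducer. The 4 arrays without PonA lay within 110 and 124, and both PonA arrays were above them. Over ethanol the log2 difference of day 1 was 0.58, and that of day 2 over untreated cells was 0.46. The fitted effect was 0.48 ± 0.17 (SE, limma adjusted p = 0.178).

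FOSL2, which encodes FRA2, went to the other side. It gave 355 in untransfected cells, 386 untreated, 333 with ethanol, 328 with PonA at day 1, 382 untreated at day 2 and 246 with PonA at day 2. At day 1 PonA and ethanol were close, at a ratio of 0.984, and the lower value was that of day 2, at 0.642 times untreated cells. The fitted effect was -0.35 ± 0.20 (SE, limma adjusted p = 0.406) and shifted to -0.64 with the day 1 PonA array left out and to -0.13 with either day 2 array left out.

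The JUN genes encode the subunits that FOS proteins pair with. JUN itself, the most strongly activating of the 3, was read by 2 probe sets annotated to the same GenBank record. The first JUN probe set gave 142 in untransfected cells, 96.9 untreated, 122 with ethanol, 133 with PonA at day 1, 100.4 untreated at day 2 and 168 with PonA at day 2. Both PonA arrays were above the 3 transfected arrays without PonA, but the untransfected array was above the PonA array of day 1. The fitted effect was 0.48 ± 0.20 (SE, limma adjusted p = 0.265) and became 0.75 when the day 1 PonA array was left out and 0.29 when either day 2 array was. The second JUN probe set stayed between 71.9 and 95.6 with overlapping groups, and its effect was 0.06 ± 0.20 (SE, adjusted p = 0.905). The 2 probe sets did not run together over the 6 arrays, with a Pearson r of -0.07.

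JUNB, which encodes a weaker activator that can oppose JUN, also differed between its probe sets. The first JUNB probe set gave, at day 1, 116 in untransfected cells, 124 untreated, 166 with ethanol and 222 with PonA, and at day 2 it gave 166 untreated and 178 with PonA. At day 1 ethanol was 1.34 times untreated and PonA again 1.34 times ethanol, so solvent and inducer stood in equal steps. The fitted effect was 0.40 ± 0.22 (SE, limma adjusted p = 0.392). With the day 1 PonA array left out it was 0.098, with the day 1 untreated array left out 0.26, and with either day 2 array left out 0.63. The second JUNB probe set gave 85.7 to 105 on the 4 arrays of day 1, with the untransfected array lowest, and 31.8 untreated and 55.7 with PonA at day 2. It followed the day more than the treatment, with a fitted value of 0.35 ± 0.23 for PonA (SE, adjusted p = 0.473). That value became 0.81 with the day 1 PonA array left out and 0.010 with either day 2 array left out. The Pearson r between the 2 JUNB probe sets was -0.17.

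JUND, the JUN gene that is steadily expressed and often linked to slower growth, gave little sign of PonA on the first and second of its 3 probe sets. The day 1 signals of the first were 2152 in untransfected cells, 2175 untreated, 2260 with ethanol and 2030 with PonA, and those of day 2 were 1898 untreated and 1690 with PonA. The second ran alongside it (Pearson r of 0.94), from 1832 with ethanol down to 1292 with PonA at day 2. The fitted effects were -0.14 ± 0.16 and -0.11 ± 0.17 (SE, limma adjusted p of 0.700 and 0.788). The 95% intervals, -0.54 to 0.25 and -0.52 to 0.30, lay within 2-fold, but the fit has no replicate cultures and they do not measure that spread. The interval of the third, -1.37 to 0.18, reached beyond 2-fold. The third JUND probe set stood at 194 in untransfected cells, 67.4 untreated, 136 with ethanol and 54.5 with PonA on day 1 and at 57.1 untreated and 46.2 with PonA on day 2, an effect of -0.59 ± 0.32 (SE, adjusted p = 0.385). Its high values were those of the untransfected and ethanol arrays, the arrays on which the second JUND probe set was also highest, at 1731 and 1832. The Pearson r of the third with the first and second was 0.71 and 0.83. Leaving out the day 1 PonA array gave an effect of -0.30, and leaving out the ethanol array gave -0.31.

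**Figure D2:**
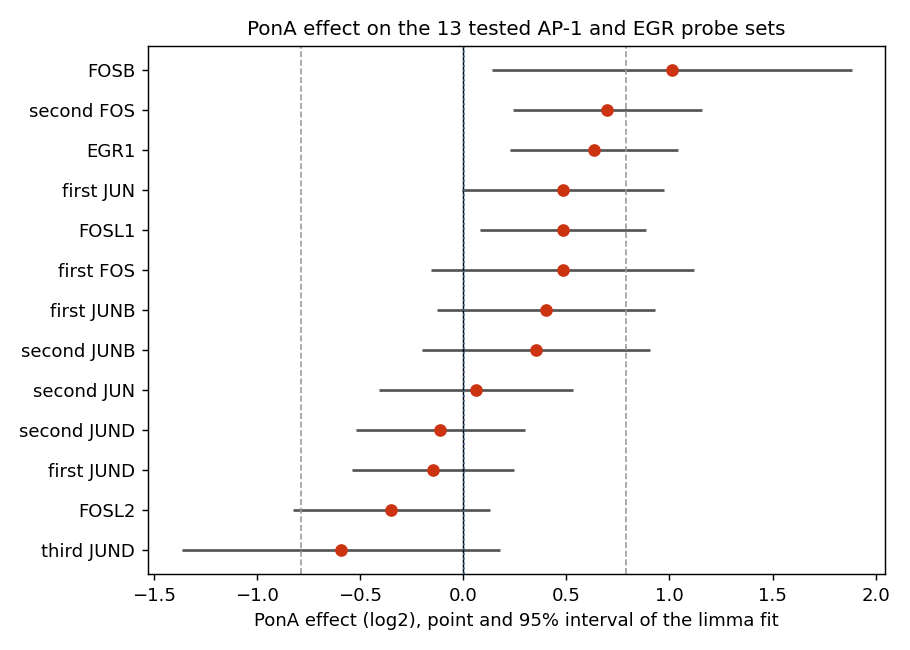
PonA effect on the log2 scale (x) of the 13 tested member probe sets (y), as the point and 95% interval of the limma fit over 5 transfected arrays. The dotted line is the median of all tested probe sets, and the dashed lines are the smallest effect that passed the threshold anywhere on the array, 0.79 in size. FOSB is the only point beyond a dashed line, and its interval is the widest of the group.

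0 of the 13 member probe sets passed the threshold in limma in either direction, against 5.07% of all 7934 probe sets tested (2.7% higher and 2.37% lower). At an unadjusted limma p under 0.05 there were 4: FOSB, EGR1, the second FOS probe set and FOSL1. The share of all tested probe sets under that p was not counted, so these 4 cannot be set against it. The smallest adjusted p of the group was the 0.0950 of EGR1. 9 of the 13 effects were above 0, a side that 50.8% of all tested probe sets took. The median effect over the 13 was 0.40, beside 0.01 over all probe sets tested, and the median size was 0.48 beside 0.22. Both PonA arrays were above all 3 transfected arrays without PonA for 6 of 13 member probe sets, where 16.6% of all tested ones were. These were EGR1, FOSB, FOSL1, the second FOS, the first JUN and the first JUNB probe set. Both were below for FOSL2 and the third JUND probe set, where 15.4% of all were. Probe sets of 1 gene are not independent, and the 10 genes were chosen by name with earlier results of these arrays known.

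**Figure D3:**
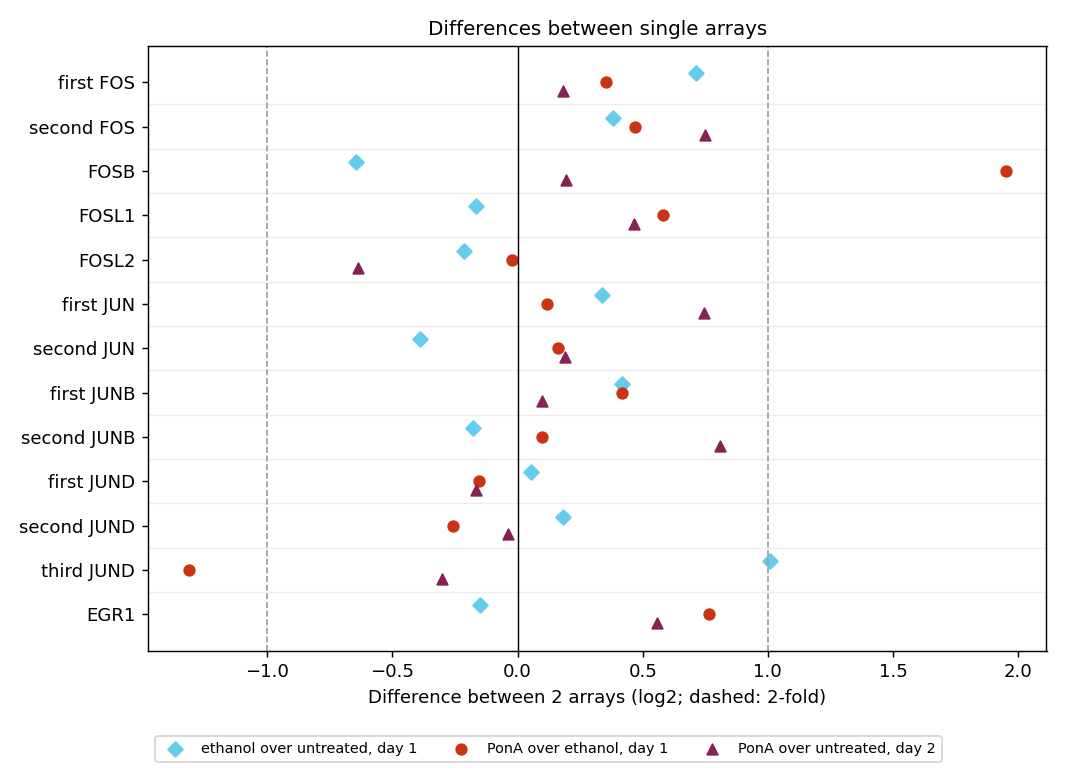
Difference between 2 arrays on the log2 scale (x) for the 13 tested probe sets (y): the ethanol step and the PonA step over ethanol at day 1, and the PonA step over untreated cells at day 2, with dashed lines at 2-fold. FOSB lies at 1.95 for PonA over ethanol but at 0.19 at day 2. EGR1 and FOSL1 lie to the right in both PonA comparisons and left of 0 for ethanol, as do FOSB and the second JUN and second JUNB probe sets. The ethanol array enters both day 1 differences.

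Setting the solvent beside the inducer at day 1 gave differing patterns among the member probe sets, with 1 array on each side and so no test. The first and second FOS, the first JUN and the first JUNB probe sets stood higher with ethanol alone and higher again with PonA, as the first FOS (1.64 times untreated with ethanol, and PonA 1.28 times ethanol), first JUNB (1.34 and 1.34) and first JUN probe set (1.26 and 1.09) show. EGR1, FOSB and FOSL1 stood lower with ethanol than without, by ratios of 0.901, 0.639 and 0.892, and higher with PonA than on either control array. The second JUN and second JUNB probe sets were also lower with ethanol (0.764 and 0.884 times untreated), so the probe sets of these genes disagreed. The share of all probe sets with either pattern was not counted. Of the 13 probe sets, 1 was at least 2-fold apart between ethanol and untreated cells, the third JUND probe set at 2.01-fold, where 2.18% of all were. Against ethanol, FOSB was at least 2-fold higher with PonA and the third JUND probe set lower, and 5.62% of all probe sets were that far apart. Against untreated cells of day 1, the first FOS probe set and FOSB were at least 2-fold higher, beside 6.71% of all in either direction. With log2 of the signal plus 32 in place of the floor, neither reached 2-fold against untreated cells, at log2 0.68 and 0.96, nor did the third JUND probe set for ethanol over untreated cells (0.75) or for PonA over ethanol (-0.95).

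At day 2 none of the 13 was 2-fold apart from untreated cells, while 8.71% of all probe sets were. The differences of largest size were those of the second JUNB probe set (1.75 times untreated), the second FOS probe set (1.68) and the first JUN probe set (1.68), with FOSL2 at 0.642. From day 1 to day 2 under PonA 10 of 13 signals were lower, and in untreated cells 8 of 13 were. The share of all probe sets that were lower was not counted. Under PonA FOSB was lowest at 0.513 times its day 1 value, but none was 2-fold apart, where 2.93% of all were. The median change of the 13 under PonA was -0.26 on the log2 scale, beside -0.07 for all probe sets. In untreated cells it was -0.11, beside -0.06 for all. In untreated cells the second JUNB probe set was at 0.302 times its day 1 signal at day 2, the only member at least 2-fold apart, where 3.19% of all were. A PonA-by-day term in limma, with 1 residual degree of freedom, called 0 of the 13 members and 0% of all probe sets. At an unadjusted p under 0.05 it held 4.16% of all and 1 member, FOSB, with a term of -1.43 ± 0.51 (SE, unadjusted p = 0.0255). Day 2 had no ethanol array, so the day and the solvent cannot be told apart in that term.

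The construct itself was set beside the parental line through the untreated arrays of day 1. Of the 13 probe sets the third JUND was the only one at least 2-fold apart, at 0.347 times the untransfected signal, where 5.72% of all were. The first and second JUND probe sets, with mean signals 22.0 and 16.8 times that of the third, were at 1.01 and 0.933 times the untransfected signal. FOSB was at 0.549 and the first JUN probe set at 0.684 times the untransfected signal, and EGR1 at 1.24. Both PonA arrays exceeded the untransfected array for 5 of the 13 probe sets, where 39.3% of all tested ones did. These were EGR1, FOSL1, the first JUNB and the first and second FOS probe sets. Both lay below it for 5, where 36.4% of all did. The 2 counts are thus near the shares over all probe sets. For the second JUN probe set, counted as below, the margin was small (81.7 and 82.0 against 82.8). The GFAP, NEFL and spike-in differences given above separate the same arrays, and their part in these ratios was not tested.

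For the 4 member probe sets above the floor on all transfected arrays that ranged at least 2-fold over the 6 arrays, the genes most alike in pattern were ranked by Pearson r of log2 signal among 1494 genes, a description over 6 arrays that share preparation and scale. The first FOS probe set was most like LTA (r = 0.967), CA4 (0.955) and APBA3 (0.950). FOSB was most like INPP5D (0.977), MAPKAPK3 (r = 0.970) and MAL (0.930), with lowest values on the ethanol array in all 3. The second JUNB probe set was most like ITGAV (0.979), ATP2B4 (0.976) and KDM5A (0.973), and the third JUND probe set was most like DPYSL3 (0.950), PDE4B (0.947) and EIF6 (0.947).

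Around these factors, single relatives and targets passed the threshold, in counts to be read against the 2.7% of all tested probe sets that rose and the 2.37% that fell. For the counts given below at an unadjusted limma p under 0.05, no such share was taken. Among AP-1 dimer partners and related leucine zipper factors 1 of 14 tested genes rose and none fell, and the list median was -0.11. It was MAFF, a small MAF protein that lacks an activation domain. MAFF gave 53.4 untreated, 56.2 with ethanol and 112 with PonA at day 1, 92.3 untreated and 255 with PonA at day 2, and 140 in untransfected cells. Its effect was 1.22 ± 0.18 on the log2 scale (SE), or 2.33-fold (limma adjusted p = 0.0186).

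Of 4 tested EGR relatives and co-repressors none rose or fell in limma, 1 had an unadjusted p under 0.05, and the median was 0.11. NAB2, which binds EGR proteins and damps them and is itself an EGR target, had the largest effect, 0.52 ± 0.19 (SE, limma adjusted p = 0.198), with 190 against 115 in ethanol at day 1 and 130 against 110 untreated at day 2. Of 16 tested kinases and factors upstream, none passed either, 3 had an unadjusted p under 0.05, and the median was 0.15. The ERK-activated kinase gene RPS6KA2 was furthest out at 1.37 ± 0.37 (SE, limma adjusted p = 0.10), with a day 1 signal of 24.9 untreated (under the floor), 56.1 with ethanol and 74.9 with PonA. Its day 2 signal was 27.0 untreated and 102 with PonA.

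Of 23 other immediate early genes tested, 3 rose, 1 fell, and the median was 0.14. CCN1, which encodes a secreted matrix-associated protein, gave 304 untreated, 196 with ethanol and 801 with PonA on day 1, then 226 untreated and 1119 with PonA on day 2, a 3.92-fold effect (log2 1.97 ± 0.26, SE, limma adjusted p = 0.0112). ZFP36L2 and ZFP36, both of which encode proteins that speed the decay of AU-rich messengers, rose 3.56-fold (limma adjusted p = 0.0123) and 2.17-fold (adjusted p = 0.0325). ZFP36L2 stood at 719 with PonA at day 1 and 1312 at day 2, against 231 to 292 on the transfected arrays without it, and its dimmer probe set rose 2.32-fold. GEM, a small GTPase of the RAS superfamily, fell, from 374 with ethanol to 178 at day 1 and from 410 to 235 at day 2 (log2 effect -0.97 ± 0.17, SE, limma adjusted p = 0.0301).

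Among genes known as AP-1 targets 1 of 18 tested rose and none fell (median 0.23), and among known EGR targets 1 of 13 rose and none fell (median 0.12). It was TGFB1, the growth factor gene, in both lists. On its brightest probe set TGFB1 gave 980 untreated, 1025 with ethanol and 2496 with PonA at day 1, 378 untreated and 1444 with PonA at day 2, and 437 in untransfected cells, a 2.99-fold effect (limma adjusted p = 0.0105). A second TGFB1 probe set rose 1.81-fold (adjusted p = 0.0390), and the third, under the floor without PonA, was not past the threshold (adjusted p = 0.106). Among the AP-1 targets, the protease gene PLAU and VEGFA had effects of 0.78 ± 0.19 and 0.85 ± 0.20 (SE, limma adjusted p of 0.0801 and 0.0712). Among the EGR targets, APOA1 and THBS1 had effects of 1.21 ± 0.38 and 1.10 ± 0.35 (SE, limma adjusted p of 0.140 and 0.146). APOA1 was above the floor on the 2 PonA arrays only, and the groups of THBS1 overlapped. The calls of MAFF, ZFP36, ZFP36L2, CCN1, GEM and TGFB1 were each lost without either array of day 2 and with no filter on low values. ZFP36, GEM and MAFF were also lost with the day 1 PonA array left out, ZFP36 and GEM with the floor at the 20th percentile, ZFP36 with quantile normalization, and MAFF and TGFB1 with no day term. Over the 10 alternatives their adjusted p ranged from 0.00109 to 0.253. None of the 6 changed direction under those alternatives.

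**Figure D4:**
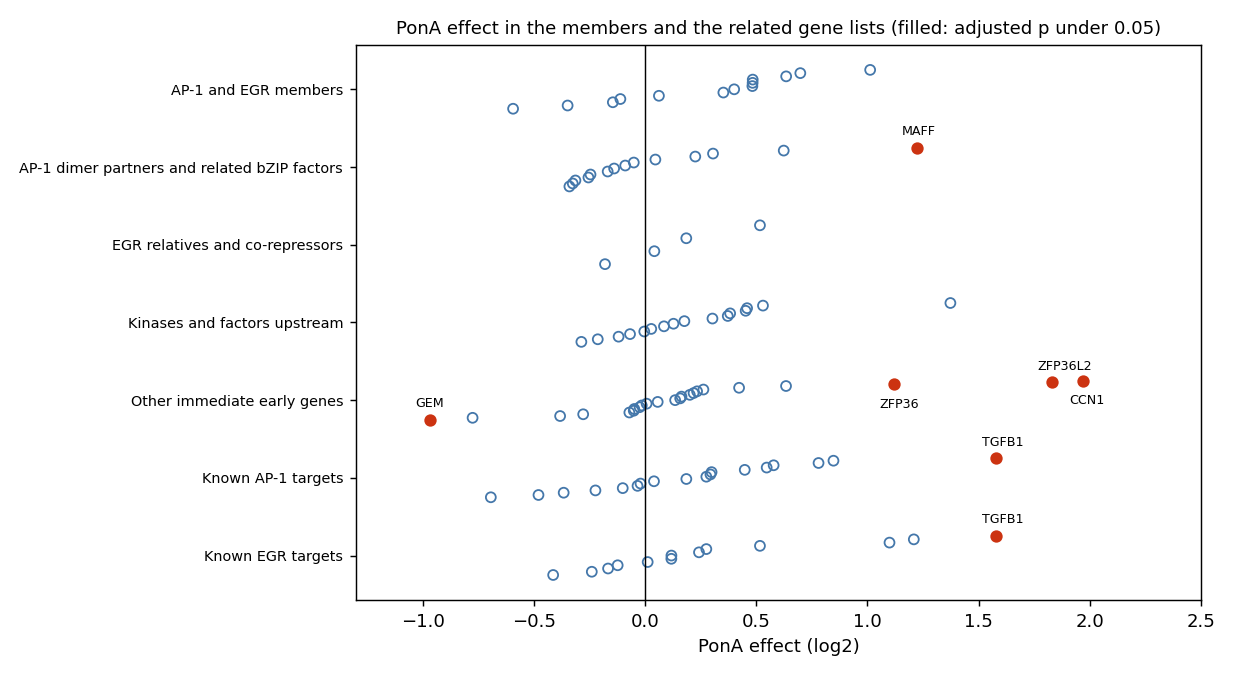
PonA effect on the log2 scale (x) of the 13 member probe sets and of the tested genes of 6 related lists (y), 1 point a probe set, spread vertically for legibility and filled where the limma adjusted p is under 0.05. No member point is filled, and the filled points are MAFF, ZFP36, ZFP36L2, CCN1, GEM and TGFB1, the last in both target lists.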

How the data were processed

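The deposited values are MAS5 signal, an intensity per probe set on a linear scale. MAS5 is named in the submitters' processing notes; its version, detection calls and genome build are not given in the sources used here. Total RNA was labelled as biotinylated cRNA, per the labels' protocols. The authors' scaling is seen in the values: each array's mean without the lowest and highest 2% of probe sets is near 150.1.

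Of 12558 probe sets that are not controls, 10943 had a single gene symbol, 545 several and 1070 none. Symbols were updated through Entrez identifiers to a RefSeq table (GRCh38.p14), which matched 10934. Promoter sequences are RefSeq's.

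Signals were floored at each array's 40th percentile and put on the log2 scale. A probe set entered the fit where 2 or more of the 5 transfected arrays exceeded the floor. The fit used limma 3.58.1 (lmFit, eBayes; R 4.3.3; 2 residual and 4.48 prior degrees of freedom), and adjusted p-values (Benjamini-Hochberg) under 0.05 were called. It was tested on simulated data. Comparisons of 1 array with 1 array have no test. In lists the brightest probe set stands for a gene. All member probe sets are named, and of the lists the genes past the threshold and up to 3 with the largest effects. Members and lists were chosen with earlier results of these data known. The number of arrays limits the precision. Alternatives changed the floor, the scaling, the filter and the day term, or left out an array.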

Additional observations from a re-analysis of the deposited data

Results flagged for a closer look

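The second JUN probe set pointed opposite ways against untreated cells on the 2 days, at log2 -0.23 on day 1 and 0.19 on day 2, a difference of 0.41. The second JUNB probe set did so as well, at -0.08 and 0.81, a difference of 0.89. These differences between single arrays were not tested as such. The PonA-by-day term of the limma fit, which uses the ethanol array too, had an unadjusted p of 0.631 for the JUN and 0.0876 for the JUNB probe set, and neither passed after adjustment. No group had enough arrays to look for an outlying sample.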

How the results depend on the processing

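Of 130 values of the 13 member effects under 10 alternatives, 126 kept direction and side of the threshold, but their sizes moved: with 1 array left out the effect moved by over 1.5 times for all of the 13 but EGR1, FOSL1, the second FOS and the first JUND probe set. The second FOS probe set passed without the ethanol array (0.80), so the count of members called ranged from 0 to 1 with an array left out and was 0 under the other settings. The second JUN probe set changed sign when arrays were left out, with effects from -0.032 to 0.19. The PonA-by-day term changed sign for the second FOS probe set with log2 of the signal plus 32 (-0.17) and for the first JUND probe set under quantile normalization (0.0097). The count over all probe sets, 402, was 219 with the floor at the 20th percentile, 619 with log2 of the signal plus 32 and 29 with no filter. It ranged from 107 (without either array of day 2) to 653 (without the ethanol array) with an array left out. The cause of these shifts was not tested. Leaving out a day 2 array leaves day 2 with 1 array, which the day term then fits exactly. No paired analysis was possible because every group holds 1 array. Signals near the floor, as of EGR3 and 2 of the FOS probe sets, carry only bounds.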
